A study of Homo sapiens with 4 samples.

Results

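The miR-28, miR-151a and miR-708 hairpins are related in sequence, and 5 of their mature miRNAs were followed by name, namely hsa-miR-28-3p, hsa-miR-28-5p, hsa-miR-151a-3p, hsa-miR-151a-5p and hsa-miR-708-5p, out of 843 distinct miRNAs listed. The prefix hsa, for human, is left out from here on. All 5 were listed in each of the 4 libraries. The libraries came from HGC27 and AGS, both established human gastric cancer cell lines, and every library, including those of the negative probe, came from cells stably overexpressing the FN1 3′-UTR from a lentivirus. Lysates were passed over beads carrying a positive or a negative RNA probe to that region, and the RNA retained was sequenced as small RNA. This gave 4 groups of 1 library each, so that there were no replicates against which to judge a difference between 2 libraries, and the intervals below cover counting error only. The labels' protocol names both a transcript and its antisense RNA as what coated the beads, while the study's methods name antisense RNA alone, and neither says which of these the positive or the negative probe was. No input RNA was analysed here, so that the level in the cell and the recovery on the beads cannot be told apart.

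A miRNA hairpin is cut into a 5p and a 3p strand, and usually one of them is loaded into an Argonaute protein while the other is discarded. The loaded strand finds its targets mainly through its seed, bases 2 to 8. The hairpins of miR-28 and miR-708 lie in introns of protein-coding genes. In the annotation used here (GENCODE 29, GRCh38), MIR28 is at chr3:188688781-188688866 (plus strand) and lies within an intron of LPP, a gene for a focal adhesion protein, on the same strand. MIR708 is at chr11:79402022-79402109 (minus strand) and lies within an intron of TENM4, a teneurin gene, again on the strand of its host.

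The sequences below show what ties the hairpins together and are given as deposited, 5′ to 3′, with the seed in capitals.
miR-28-5p: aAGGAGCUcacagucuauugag
miR-708-5p: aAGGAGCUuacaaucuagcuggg
miR-28-3p: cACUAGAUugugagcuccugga
miR-708-3p: cAACUAGAcugugagcuucuag
The 5p strands of miR-28 and miR-708 carry 1 seed, AGGAGCU, and share their first 8 bases. The sequences of miR-151a are not printed here. miR-151a-5p shared an unbroken run of 16 bases with miR-28-5p, but the run starts at base 4 of miR-151a-5p and at base 2 of miR-28-5p, so that the seeds of these strands differ. The seeds of the 3p strands differ as well. miR-708-3p is the partner strand of miR-708-5p and was not among the 5 members. RefSeq (GRCh38.p14) held the same sequence for miR-28-3p at chr3:188688834-188688855, for miR-708-5p at chr11:79402077-79402099 and for miR-708-3p at chr11:79402032-79402053. No other entry of the table contained a member or lay within one, and the longest run that a member shared with an entry outside the 3 hairpins and miR-3139 was 10 bases.

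The tables held between 1296853 and 2955078 miRNA counts per library. The 5 members made up 0.379% of the counts with the negative and 0.331% with the positive probe in HGC27, and 0.0785% and 0.0468% in AGS. Levels are given as the deposited score, which is tags per 1000000 rounded to a whole number, with the raw count beside it. In AGS 1 miRNA, miR-372-3p, took 80.8% of the counts with the negative probe and 37.5% with the positive probe, which lowers the share left to all others, and results that turn on this are given under a second scaling.

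The strands of miR-28 went different ways. With the negative probe nearly all of its reads were the 3p strand, and with the positive probe the 3p strand was depleted in both lines while the 5p strand was not. miR-28-3p had 2882 counts (score 991) with the negative probe and 182 (score 66) with the positive probe in HGC27. In AGS it had 1830 counts (score 255) and 76 counts (score 18). The score of this strand was thus lower with the positive probe in each line. The ratio of the scores, positive over negative probe with 1 added to each, was 0.0675 in HGC27, that is 14.8-fold lower, and 0.0742 in AGS, 13.5-fold lower. The AGS size depended on the scaling, with a log2 ratio of -3.75 from the score, -4.82 under trimmed mean of M-values (TMM) scaling and -5.32 with totals that exclude miR-372-3p. The fold from the counts had an exact 95% interval of 0.0569 to 0.0772 in HGC27 and of 0.0547 to 0.0878 in AGS. Ranked from the most depleted, miR-28-3p was number 6 of the 755 miRNAs listed in HGC27 and number 12 of the 459 listed in AGS. Only 366 of the 755 and 230 of the 459 had at least 10 counts in a library, and a low count leaves little room for a low ratio.

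The partner strand did not follow. miR-28-5p had 125 counts (score 43) with the negative and 157 (score 57) with the positive probe in HGC27. The ratio was 1.32, and the interval of the count fold 1.04 to 1.68. In AGS it had 76 counts (score 11) and 202 counts (score 47), which gave a ratio of 4.00 and an interval of 3.41 to 5.89. The 5p strand was thus recovered at a higher score with the positive probe in both lines, by a small margin in HGC27. The AGS ratio depended on the scaling, and was 1.15 on the log2 scale under TMM scaling against 2.00 with the deposited score.

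The share of the 3p strand among the reads of both strands does not depend on how the libraries are scaled. For miR-28 it was 95.8% (exact 95% interval 95.1 to 96.5) of 3007 counts in HGC27 and 96.0% (95 to 96.8) of 1906 counts in AGS, both with the negative probe. With the positive probe it was 53.7% (48.2 to 59.1) of 339 counts in HGC27 and 27.3% (22.2 to 33.0) of 278 counts in AGS. The negative probe libraries therefore gave the same strand bias in both lines within counting error, and the positive probe libraries did not. In AGS the 5p strand became the more frequent strand, with 2.66 reads for each read of the 3p strand, whereas with the negative probe there were 24.1 reads of the 3p strand for each of the 5p strand.

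**Figure D1:**
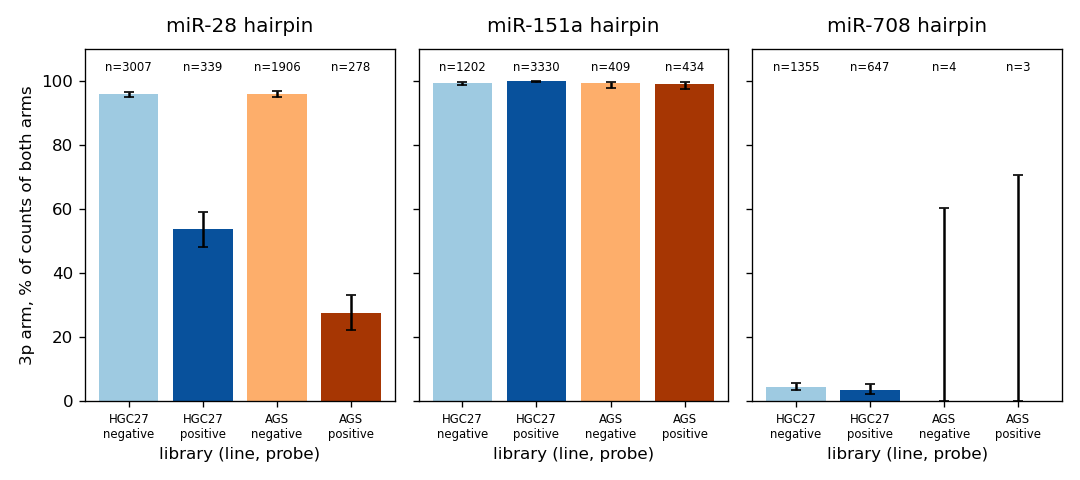
Share of the 3p strand among the counts of both strands of each hairpin (y axis, percent) in the 4 libraries (x axis, line and probe), with exact 95% intervals for counting error and the counts of both strands above each bar. For miR-28 the bars stand at 95.8% and 96.0% with the negative probe and at 53.7% (HGC27) and 27.3% (AGS) with the positive probe, while miR-151a stays above 99% in every library, and miR-708 has too few counts in AGS to place its share.

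On the log2 scale, the 3p over 5p ratio of miR-28 shifted by -4.31 (exact 95% interval -4.73 to -3.90) between the probes in HGC27 and by -6.00 (-6.53 to -5.47) in AGS. Strand ratios moved between the libraries in many hairpins. Of the 43 known hairpins with at least 10 counts on each strand in both HGC27 libraries, 55.8% shifted by at least 1 in either direction, and of the 12 such hairpins in AGS 91.7% did, so that a shift of this size was common. Among the 42 others in HGC27 the median shift was -0.07 and 3 were lower than miR-28. Of these 3, miR-199a (-7.79) and miR-199b have the same 3p counts, so that 1 drop of a 3p strand enters more than once. The 5p strands of miR-125b in HGC27 and of miR-181a in every comparison likewise enter for more than 1 hairpin. Among the 11 others in AGS the median was -2.01 and 1 was lower. The lowest were miR-199b in HGC27, at -8.11, whose 3p strand is listed with the same sequence under another name, and miR-423 in AGS, at -9.45. The highest was miR-99b in both lines, at 3.70 and 4.12.

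Between the lines, the miR-28 strand ratio differed by -0.06 (-0.50 to 0.37) with the negative probe, HGC27 minus AGS, and by 1.62 (1.11 to 2.14) with the positive probe. Of the hairpins that could be compared, 46.7% of 15 shifted by at least 1 with the negative probe and 50% of 12 with the positive probe. miR-28 had the smallest shift of the 15 in the first comparison and the fifth in size of the 12 in the second.

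**Figure D2:**
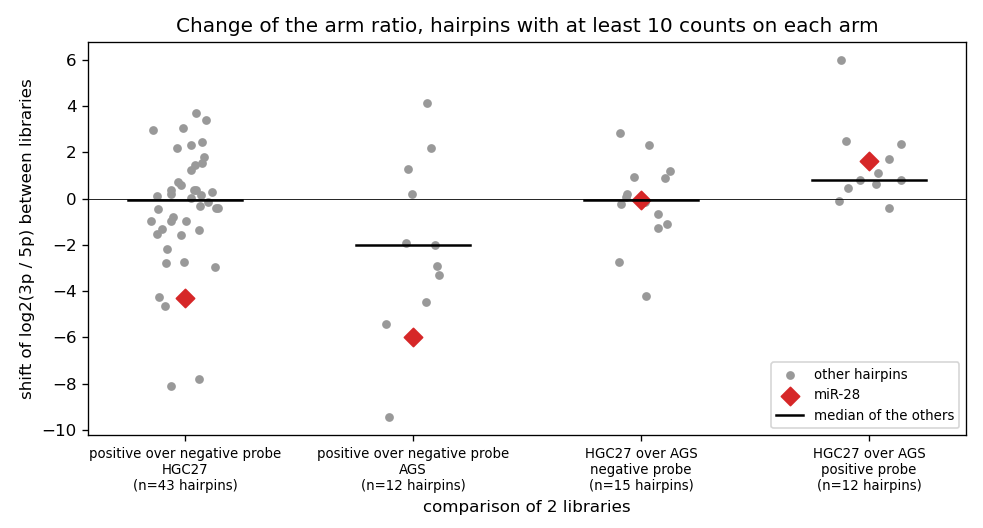
Change of log2(3p / 5p) between 2 libraries (y axis) for each known hairpin with at least 10 counts on each strand in both, in the 4 comparisons (x axis), with miR-28 as a red diamond, the other hairpins as grey points spread sideways for legibility and the median of the others as a black line. miR-28 lies at -4.31 and -6.00 between the probes, near the low end of each column, and at -0.06 between the lines with the negative probe.

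The miR-151a hairpin gave a different picture, since nearly all of its reads were the 3p strand in each library. miR-151a-3p had 1195 counts (score 411) with the negative and 3327 (score 1204) with the positive probe in HGC27, and 406 (score 56) and 430 (score 101) in AGS. It was the most abundant member in both positive probe libraries. The ratio was 2.92 in HGC27 (interval of the count fold 2.74 to 3.13) and 1.79 in AGS (1.55 to 2.04), so that the AGS value was under the threshold of 2. The direction in HGC27 was positive under each of the 6 other settings tried. In AGS it was not, since the log2 ratio of 0.84 was -0.16 under TMM scaling and -0.67 with totals that exclude miR-372-3p.

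miR-151a-5p was near the lower limit of the table, in which the lowest listed count is 2. It had 7 counts (score 2) and 3 counts (score 1) with the negative and positive probe in HGC27, and 3 (score 0) and 4 (score 1) in AGS. The interval of the count fold was 0.0752 to 1.97 in HGC27 and 0.379 to 15.3 in AGS, so that no difference between the probes was detectable at this depth. The 3p share of the hairpin was 99.4% (98.8 to 99.8) and 99.9% (99.7 to 99.98) in HGC27 and 99.3% (97.9 to 99.8) and 99.1% (97.7 to 99.7) in AGS. Because the 5p strand had under 10 counts in each library, miR-151a was not among the hairpins whose strand ratios were compared above. Its 3p over 5p ratio shifted on the log2 scale by 2.70 (exact 95% interval 0.56 to 5.28) between the probes in HGC27, opposite in sign to miR-28, and by -0.33 (-3.11 to 2.24) in AGS.

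miR-708-5p was found almost entirely in HGC27. It had 1295 counts (score 446) with the negative probe and 624 (score 226) with the positive probe in HGC27, but 4 and 3 counts (score 1 in both) in AGS. The AGS values were close to the lower limit of the table, and most listed miRNAs had a higher score in HGC27, as given below. Its probe ratio in HGC27 was 0.508, just short of the threshold of 0.5, with an interval of the count fold of 0.460 to 0.558. In AGS the scores gave a ratio of 1 on 7 counts in all, with an interval of 0.185 to 7.45.

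Its partner strand, miR-708-3p, showed the same restriction, with 60 and 23 counts in HGC27 and no entry in either AGS library. The 5p strand took 95.6% (94.3 to 96.6) of the reads of both strands with the negative probe and 96.4% (94.7 to 97.7) with the positive probe in HGC27. The log2 shift of its 3p over 5p ratio between the probes was -0.33, with an interval of -1.11 to 0.40 that includes 0. In HGC27 the interval of this shift thus included 0 for miR-708, whereas those of miR-28 and, in the opposite direction and on 10 counts of its 5p strand, miR-151a did not.

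**Figure D3:**
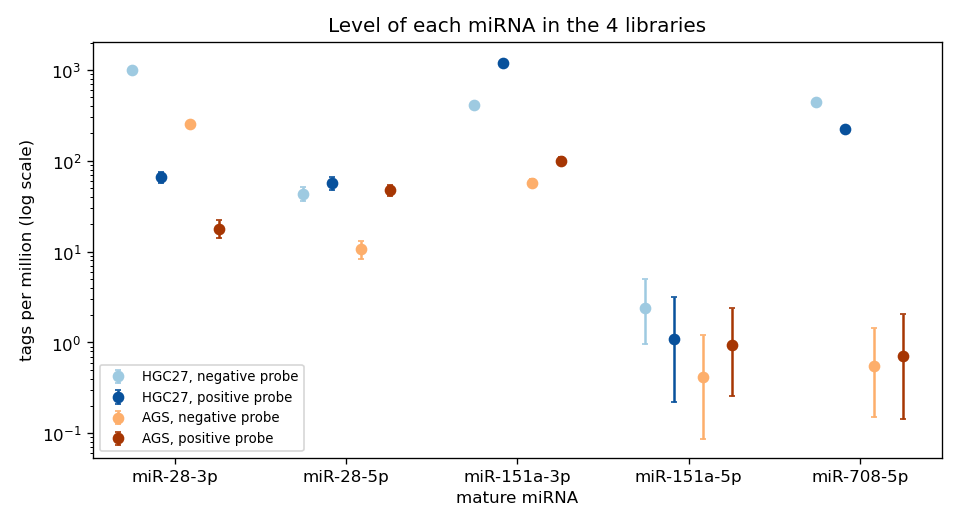
Level of the 5 members in the 4 libraries, as counts per 1000000 of the tags behind the deposited score (y axis, log scale), with exact 95% intervals for counting error. Light points are the negative and dark points the positive probe, blue is HGC27 and orange AGS. miR-28-3p drops from 991 to 65.9 tags per 1000000 in HGC27 and from 255 to 17.8 in AGS, and miR-708-5p lies at 446 and 226 in HGC27 but under 1 in AGS.

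The counts with the seed AGGAGCU were mostly miR-708-5p in HGC27 and mostly miR-28-5p in AGS, and miR-28-5p was recovered from both lines. Besides miR-28-5p and miR-708-5p, the entry miR-3139 has this seed and had 6 counts, all in the positive probe library of HGC27. Of the 1420 counts of this seed in HGC27 with the negative probe, miR-708-5p held 91.2% (89.6 to 92.6), and of the 787 with the positive probe it held 79.3% (76.3 to 82.1). In AGS, miR-28-5p held 95% (87.7 to 98.6) of 80 counts and 98.5% (95.8 to 99.7) of 205 counts. All counts with this seed together came to 489 tags per 1000000 with the negative and 285 with the positive probe in HGC27, and to 11.1 and 48.0 in AGS. The summed level was thus lower with the positive probe in HGC27 and higher in AGS.

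Set against all listed miRNAs, 1 of the 5 members had a probe ratio of at least 2 in HGC27 (miR-151a-3p) where 37.5% of the 755 did, and 1 had a ratio of at most 0.5 (miR-28-3p) where 34% did. In AGS, 2 members were at or above 2 (miR-28-5p, and miR-151a-5p on 4 against 3 counts) where 39.4% of 459 were, and 1 was at or below 0.5 (miR-28-3p) where 22.7% were. These shares were near the background, and the median log2 ratio of the members was -0.58 in HGC27 and 0.84 in AGS against 0 in both lines over all listed miRNAs. The gap in AGS was not seen with unrounded values, where the medians were 0.84 and 0.82 from counts over the total of the table and -0.16 and -0.17 under TMM scaling. In HGC27 they were -0.81 and 0.13, and -0.56 and 0.18. With 5 members, however, the median is the value of 1 of them. In HGC27 this was miR-151a-5p each time, on 7 counts with the negative and 3 with the positive probe. There a pseudocount of 10 gave -0.13 against 0. In AGS it was miR-151a-5p for counts over the total of the table, and miR-151a-3p for the score and TMM scaling. The members differed in direction. At a ratio of at most 0.25, miR-28-3p was the only member in either line, where 8.21% of the listed miRNAs were in HGC27 and 8.71% in AGS. At a ratio of at least 4 there was no member in HGC27, where 7.95% of the listed miRNAs were, and 1 in AGS, miR-28-5p, where 13.7% were. With 10 counts or more required in a library, miR-28-5p was also the only member at or above 2 in AGS, where 40.4% were. The members past 0.25 and 4 were the same under this filter, but larger shares of all miRNAs passed. At or below 0.25 were 15.6% of 366 in HGC27 and 17.4% of 230 in AGS. At or above 4 were 11.5% in HGC27 and 27.4% in AGS.

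**Figure D4:**
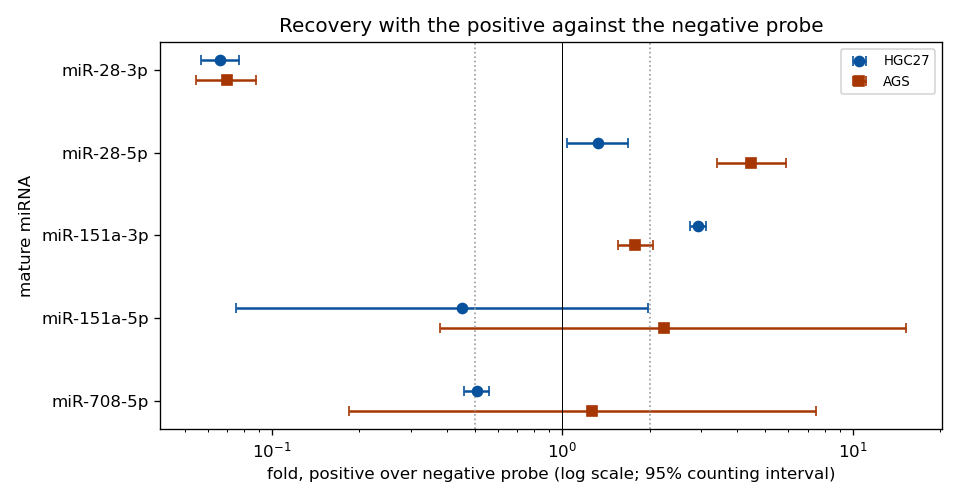
Fold of each member, positive over negative probe, from the counts and the tags behind the deposited score (x axis, log scale) in HGC27 (blue circles) and AGS (brown squares), with exact 95% intervals for counting error and dotted lines at 0.5 and 2. miR-28-3p lies at 0.0664 and 0.0698, its partner strand at 1.32 and 4.47, and the intervals of miR-151a-5p in both lines and of miR-708-5p in AGS include 1.

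The 2 lines were also fitted in 1 model, with the line as covariate, in edgeR's quasi-likelihood test on the raw counts of all 4 libraries, where the lines stand in for replicates and 1 residual degree of freedom remains. Of the 271 miRNAs tested, 2.95% were called lower and 4.06% higher with the positive probe. Of the 5 members, 4 passed the filter on low counts, and miR-151a-5p did not. miR-28-3p fell by 4.28 ± 1.30 (SE) on the log2 scale and was the only member called (edgeR adjusted p = 0.0274). Its value was lower in 2 of 2 lines. The call was lost with library totals in place of TMM scaling (edgeR adjusted p = 0.0885) and with no filter on low counts (edgeR adjusted p = 0.458), and held with DESeq2 size factors (edgeR adjusted p = 0.00711) and in the DESeq2 Wald test (adjusted p = 0.00014). The log2 fold change was 0.87 ± 1.07 for miR-28-5p (SE; edgeR adjusted p = 0.700), 0.78 ± 1.17 for miR-151a-3p (0.743) and -0.75 ± 1.20 for miR-708-5p (0.765), and none of these was called in any of the 4 alternatives. The intervals of these 3 members are wide, and the test does not show that they were recovered alike with both probes.

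The same fit compared the lines with the probe as covariate, and here 22.1% of the 271 miRNAs were called higher and 7.75% lower in HGC27. miR-708-5p was higher in HGC27 by 6.09 ± 1.40 (SE) on the log2 scale (edgeR adjusted p = 0.000299), in 2 of 2 probes. It was called in 3 of the 4 alternatives, and not with no filter on low counts (edgeR adjusted p = 0.1). From the counts, its fold of HGC27 over AGS was 800 with the negative probe (exact 95% interval 312 to 2939) and 322 with the positive probe (110 to 1564). The ratio of the rounded scores was lower, 224 and 114, since the AGS scores of 1 stand for 0.557 and 0.702 tags per 1000000 and 1 was added to each score. Its partner miR-708-3p was called as well (log2 fold change 7.62 ± 2.13 SE, edgeR adjusted p = 0.00246), although with no counts in AGS this fold change depends on the prior count. The call was lost with no filter on low counts (edgeR adjusted p = 0.274) and in the DESeq2 Wald test (adjusted p = 0.189).

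The other members could not be placed between the lines. With the deposited score, 5 of 5 members were at least 2-fold higher in HGC27 with the negative probe, where 86% of 615 listed miRNAs were, and 3 of 5 with the positive probe, where 75.3% of 684 were. With the negative probe 2 of them, miR-151a-3p and miR-708-5p, were at least 4-fold higher, where 42.3% were. With 10 counts or more required in a library, these were 2 of 4 members, where 74.2% of 330 miRNAs were. With TMM scaling miR-28-3p was lower in HGC27 by a log2 value of -1.51 and -0.40 with the negative and positive probe, against 1.95 and 1.82 with the score. miR-28-5p was at -1.42 and -2.0 under TMM scaling against 1.87 and 0.27. miR-151a-3p was at -0.60 and 1.29 against 2.85 and 3.56. The median of the miRNAs with at least 10 counts moved from 2.81 to 0.22 with the negative probe, so that the direction of these members depended on the scaling. In the edgeR fit none of the 3 was called (edgeR adjusted p = 0.560, 0.249 and 0.855). With library totals in place of TMM scaling miR-151a-3p was called higher in HGC27, at 2.89 ± 0.76 (SE; edgeR adjusted p = 0.0110) against 0.34 ± 1.17 with TMM scaling, and in the other alternatives none of the 3 was called.

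Profiles over the 4 libraries were compared by the Euclidean distance of centred log2(score + 1), a description over 4 libraries, among 113 other known miRNAs with at least 10 counts in each library. The nearest to miR-28-3p were miR-103a-3p at 1.40 and miR-99b-5p at 1.64, where the median distance was 4.79. miR-103a-3p had scores of 19879 and 1398 with the negative and positive probe in HGC27 and of 1697 and 188 in AGS. The nearest to miR-28-5p were miR-222-3p at 0.70 and miR-221-3p at 0.77, which come from 1 cluster, with a median distance of 2.98. The distance between the strands of miR-28 was 5.14, above either median. The nearest to miR-151a-3p were miR-345-5p at 0.20 and miR-32-5p at 0.53, with a median of 2.96. In AGS the scores with the negative and positive probe were 2 and 4 for miR-345-5p and 3 and 6 for miR-32-5p. Those of miR-222-3p were 3 and 20. Such scores are small whole numbers, so that rounding enters these distances.

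Finally, the FN1 3′-UTR was searched for the seeds, in the transcript that corresponds to the FN1 mRNA cloned in the study, where it is 1101 bases long (chr2:215360454-215361554, minus strand). The complement of the seed of miR-28-5p and miR-708-5p, AGCTCCT, was not found, nor was that of miR-28-3p, ATCTAGT, and the seeds themselves, which would pair with an antisense strand, were not found either. The same held for both strands of miR-151a. Of the 570 known miRNAs listed, 7.37% had such a match on the mRNA strand and 7.72% on the opposite strand, so that a miRNA without a match was the usual case. With 1 base fewer than the seed, the mRNA strand held 1 match for miR-151a-3p and 1 for miR-708-3p. The other members had none on either strand, and the share of all miRNAs with so short a match is not given here. These are matches of letters only and say nothing about pairing outside the seed.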

How the data were processed

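For every mature miRNA the authors deposited a raw count of tags and a score, that is tags per 1000000 rounded to whole numbers. The submitters' processing notes name cutadapt 1.9.3, Novoalign 3.02.12 and the build hg38. The database release and the handling of reads shared by several entries are not given in the sources used here. Rows repeated for each precursor were collapsed from 901 to 843 names, and a blank was taken as 0. The tags behind the score were recovered from counts and scores, and the table held 35.7% to 50.0% of them. The smallest listed count was 2, and totals per library were 1296853 to 2955078.

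The probe ratio was (positive score + 1) / (negative score + 1), as in the study, with exact (Clopper-Pearson) 95% intervals from the counts. Python 3.11.15, scipy 1.17.1, R 4.3.3, edgeR 4.0.16 and DESeq2 1.42.0 were used. edgeR tested all entries that passed filterByExpr, with Benjamini-Hochberg adjustment, TMM scaling and infinite prior degrees of freedom, so that in effect 1 spread served all miRNAs (common biological coefficient of variation 0.612). The SE was derived from the F statistic. This step was also run on simulated data with a set probe effect or none. The simulation held no difference between the lines, such as that of miR-372-3p, and cannot show how such a difference affects the calls. Alternatives changed the scaling, pseudocount, filter, threshold or test. Members, lists and tests were chosen with earlier results of these data known. Besides the members, related entries, the 2 nearest profiles of each member with at least 10 counts in each library, and the hairpins with the largest strand shifts were named. RefSeq held 2 of the 5 members, miR-28-3p and miR-708-5p.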

Additional observations from a re-analysis of the deposited data

Results flagged for a closer look

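miR-151a-5p had a probe ratio below 1 in HGC27 and above 1 in AGS, with log2 ratios that differed by -1.58 (HGC27 minus AGS). This difference was not tested, and it rests on 7 and 3 counts in HGC27 and on 3 and 4 counts in AGS.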

How the results depend on the processing

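The strand shares of miR-28 need no scaling, and no entry could be added to a strand, so that this alternative gave no value. Its strand shifts were the same with at least 50 counts on each strand, while the share of hairpins that shifted between the lines with the negative probe was then 14.3%.

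In AGS, the log2 probe ratio of miR-28-3p (-3.75) was -4.82 under TMM, -4.18 under DESeq2 scaling, -5.32 with totals that exclude miR-372-3p and -3.24 with a pseudocount of 10. That of miR-28-5p (2.00) was 1.15, 0.65 and 1.44 under TMM, without miR-372-3p and with a pseudocount of 10. With a threshold of 4, 0 members were higher in HGC27 and 1 in AGS with the positive probe, and 2 were higher in HGC27 than in AGS with the negative probe. With at least 10 counts 1 was higher in AGS.

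The edgeR probe test made 19 calls, 35 with DESeq2 size factors, 0 with library totals (52 at an unadjusted p under 0.05), 0 with no filter (66) and 49 in DESeq2. The line test made 81 calls, 169 with library totals and 0 with no filter (95).

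Directions that turned were mostly between the lines. With the negative probe the values under TMM, under DESeq2 scaling and without miR-372-3p were -1.51, -1.14 and -0.70 for miR-28-3p, -1.42, -1.06 and -0.63 for miR-28-5p, and -0.68, -0.41 and -0.11 for miR-151a-5p, and under TMM and DESeq2 scaling -0.60 and -0.24 for miR-151a-3p. With the positive probe miR-28-3p was at -0.40 and -0.66 under TMM and DESeq2 scaling, and miR-28-5p, at 0.27 with the score, was at -2.0, -2.27, -0.80 and -0.13 under TMM, DESeq2 scaling, totals that exclude miR-372-3p and totals of the table. In the line test with library totals miR-28-3p was at 1.59 and miR-28-5p at 0.80, and miR-151a-3p gained a call at 2.89 (edgeR adjusted p = 0.0110). In values with no test, miR-151a-3p was at -0.60 to 1.29 between the lines with 1 probe left out and at -0.16 to 1.73 between the probes with 1 line left out (negative without the positive probe and without HGC27), and miR-151a-5p in AGS was at -0.28 without miR-372-3p. miR-372-3p is large in AGS, and the cause of these turns was not tested.

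The labels number no replicates, and the only pairing was by line, which the edgeR probe test holds as a covariate. Depth limits miR-151a-5p in both lines and miR-708-5p in AGS, at 3 to 7 counts.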
